A study of Mus musculus with 24 samples.

Results

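Elastic fibre and crosslinking genes were followed in mesenteric arteries, the small resistance arteries that supply the intestine. The set holds 10 genes: Eln, Fbn1, Fbln5, Emilin1, Mfap4, Mfap5, Lox, Loxl1, Loxl2 and Ltbp4. They were chosen by symbol, as the rows of the expression table whose Ensembl identifier maps to one of these names. All 10 were found among the 29020 genes of the table, and all 10 were among the 14544 genes that were expressed enough to be tested. Total RNA was sequenced from 24 male mice in 4 groups of 6, with 1 mouse per library. The ieCre mice, which served as controls, carried a tamoxifen-inducible Cre recombinase driven by the endothelium-specific Tie2 promoter. The ieET-1 mice overexpressed human endothelin-1, a vasoconstrictor peptide, in the endothelium after tamoxifen. Both genotypes were 10 to 12 weeks old when they were given tamoxifen at 1 mg/kg/day under the skin for 5 days, so the controls carried the Cre and the drug as well. Mice were killed 16 days or 3 months later, and the 3-month mice were therefore older. Each mouse is named by its animal ID.

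Elastic fibres give an artery its recoil. Their core is crosslinked elastin, which smooth muscle cells and fibroblasts secrete as soluble tropoelastin, and which is laid down on a scaffold of microfibrils built from fibrillins. Fibulins, EMILINs and latent TGF-beta binding proteins tie the core, the microfibrils and the cells together, and copper-dependent lysyl oxidases join the tropoelastin chains through their lysines. In small arteries the elastin forms mainly the internal elastic lamina beneath the endothelium. Most arterial elastin is laid down during growth, and the finished polymer turns over very slowly.

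The promoter windows are shown so that the start regions can be compared. RefSeq promoter entries on GRCm38.p6 matched 4 of the 10 genes, Fbn1, Fbln5, Emilin1 and Ltbp4; Eln, Mfap4, Mfap5, Lox, Loxl1 and Loxl2 had no entry. Each window runs 5′ to 3′ on the gene's own strand, from 250 bases before to 50 bases after the start. Capitals mark matches, on either strand, to the GC box GGGCGG or the CCAAT box CCAAT. The Fbn1 window lies at chr2:125506389-125506688 on the minus strand, the Fbln5 window at chr12:101819070-101819369 on the minus strand, the Emilin1 window at chr5:30913536-30913835 on the plus strand and the Ltbp4 window at chr7:27337563-27337862 on the minus strand. The RefSeq starts of Fbn1, Emilin1 and Ltbp4 lie inside these genes as GENCODE draws them, so their windows cover internal starts.
Fbn1: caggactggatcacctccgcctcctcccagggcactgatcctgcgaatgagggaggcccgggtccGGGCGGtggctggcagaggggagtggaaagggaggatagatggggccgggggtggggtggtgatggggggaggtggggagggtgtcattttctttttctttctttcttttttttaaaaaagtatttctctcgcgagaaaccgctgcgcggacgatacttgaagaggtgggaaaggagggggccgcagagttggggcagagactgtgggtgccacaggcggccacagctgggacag
Fbln5: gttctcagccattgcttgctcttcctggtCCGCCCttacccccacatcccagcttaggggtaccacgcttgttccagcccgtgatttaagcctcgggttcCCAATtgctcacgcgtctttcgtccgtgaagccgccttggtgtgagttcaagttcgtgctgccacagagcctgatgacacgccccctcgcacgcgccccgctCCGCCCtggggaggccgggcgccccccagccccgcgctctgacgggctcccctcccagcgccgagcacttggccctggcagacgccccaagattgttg
Emilin1: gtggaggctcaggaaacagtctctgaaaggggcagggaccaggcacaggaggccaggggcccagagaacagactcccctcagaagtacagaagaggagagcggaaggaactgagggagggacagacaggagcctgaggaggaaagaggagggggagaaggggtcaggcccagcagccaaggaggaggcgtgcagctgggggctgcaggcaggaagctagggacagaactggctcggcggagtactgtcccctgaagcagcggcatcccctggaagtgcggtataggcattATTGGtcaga
Ltbp4: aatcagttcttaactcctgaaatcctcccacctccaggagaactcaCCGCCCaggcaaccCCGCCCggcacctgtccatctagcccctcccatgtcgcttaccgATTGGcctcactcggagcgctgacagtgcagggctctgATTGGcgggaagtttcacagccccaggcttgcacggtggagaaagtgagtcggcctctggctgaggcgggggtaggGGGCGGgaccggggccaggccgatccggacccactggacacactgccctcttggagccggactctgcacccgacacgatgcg
The Ltbp4 window held 3 GC boxes and 2 CCAAT boxes, and that of Fbln5 held 2 GC boxes and 1 CCAAT box. Fbn1 had 1 GC box and no CCAAT box, and Emilin1 had 1 CCAAT box and no GC box. Neither the TATA box TATAAA nor the AP-1 motif TGANTCA occurred in any of these windows. Among the 32851 promoter windows of the same length, 35.66% held a GC box, 37.41% a CCAAT box, 13.62% a TATA box and 7.81% an AP-1 motif. A match describes the letters only.

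The libraries held 9635250 to 16181605 reads assigned to genes, with a median of 13017255. Values are reads over an effective library size and read much like CPM, and a gene with 3 reads had a value of 0.177 to 0.461. The fewest reads behind any value of the 10 genes were 68, for Loxl2, so counting error is part of the spread of that gene. The other 9 genes had at least 431 reads in every library, and their counting error is small beside the spread between mice. In 4 libraries over 10% of reads lay on Gm42418, which overlaps ribosomal RNA sequence: mice 9955 (ieCre, 16 days), 9491 (ieCre, 3 months), and 8135 and 8136 (ieET-1, 3 months). In mouse 9489 (ieET-1, 3 months) 24399 genes had reads, against at most 20744 in any other library. The arteries carried strong smooth muscle markers: the mean log2 value over 8 markers was 10.04 for ieCre and 9.64 for ieET-1 at 16 days, and 9.91 and 9.96 at 3 months. The libraries also differed in how values depended on the GC content of the transcripts. The trend, taken as the log2 deviation at 60% GC minus that at 42% GC, ranged from -0.28 to 0.46 in ieCre at 16 days and was negative in all 6 ieET-1 libraries at 16 days, from -0.45 to -0.05. At 3 months it ranged from -0.19 to 0.37 in ieCre and from -0.31 to 0.52 in ieET-1. Transcripts of Ltbp4 (62.2% GC), Emilin1 (61.1%), Loxl1 (61.0%) and Eln (58.8%) were well above the median of 49.6% over the tested genes, and that of Lox (43.9%) was below it.

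On a scale of value per kilobase of exon, Mfap4 was the most abundant of the set, with 90.9 ± 26.2 (SD, n = 24 libraries), followed by Fbn1 with 74.4 ± 25.5. Fbln5, Mfap5, Eln, Lox, Ltbp4 and Loxl1 came next, from 48.1 down to 30.9 per kilobase. Emilin1 stood at 23 ± 6.75, and Loxl2 was lowest at 2.75 ± 0.992. With this length, all annotated exons of a gene joined, the top and the bottom of the order were clear, and its middle was not. The place of Eln depends on the length used, as its joined exons span 8098 bases and its longest transcript 3853. For Fbn1 these lengths are 12128 and 11971, and for Mfap4 1922 and 1770. Fbn1 exceeded Fbln5 and Emilin1 exceeded Loxl2 in 24 of 24 libraries, and Mfap4 exceeded Fbn1 in 20. Among the middle genes the neighbours changed places: Fbln5 exceeded Mfap5 in 14 libraries, Mfap5 exceeded Eln in 15, and Eln exceeded Lox in 11 of 24.

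**Figure D1:**
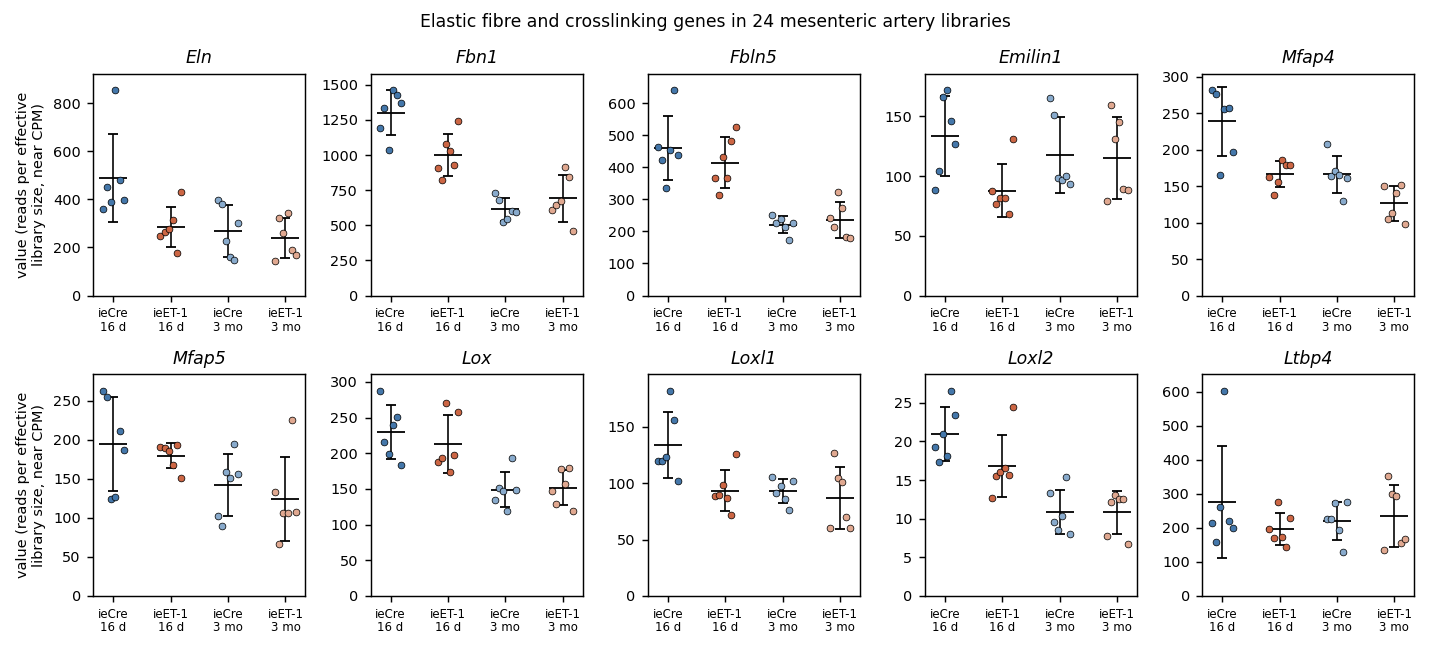
Value of each of the 10 genes (reads per effective library size, near CPM; linear axes from 0) in each of the 24 libraries, with the group mean and SD (n = 6). Means of Fbn1, Fbln5, Lox and Loxl2, which passed with time in both genotypes, are lower at 3 months than at 16 days. Those of Eln, Mfap4, Mfap5 and Loxl1 are also lower in both genotypes, without passing in both. In ieET-1 the times overlap in every gene. Eln is highest in mouse 9955 of the ieCre 16-day group, at 852.9.

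Eln encodes tropoelastin, the core of the fibre (ENSMUSG00000029675, GRCm38 chr5:134702593-134747323, minus strand). Its value was 361 to 853, median 425, in ieCre at 16 days and 177 to 430, median 269, in ieET-1 at 16 days. The groups overlapped only through mouse 8992, the ieET-1 library at 430, and the other 5 ieET-1 libraries lay below every ieCre library. At 3 months the values were 146 to 396, median 264, in ieCre and 143 to 343, median 226, in ieET-1, and these groups lay over each other. The group means were 489 ± 183, 284 ± 84.1, 269 ± 107 and 239 ± 83.7 (SD, n = 6) in that order. With limma across all genes, the 16-day genotype difference was -0.76 on the log2(value + 1) scale (SE 0.27, 95% interval -1.32 to -0.21), a 1.70-fold lower level in ieET-1, and did not pass after Benjamini-Hochberg adjustment over 14544 genes (adjusted p = 0.461). Eln was also compared on its own by exact permutation of the 12 libraries of a time (two-sided, smallest possible p 0.00217). The exact permutation p was 0.00866 at 16 days and 0.649 at 3 months, or 0.0173 and 0.649 adjusted over these 2 tests. It takes no account of the other genes, or of a set chosen with earlier results of these data known. No other gene was given such a test. At 16 days Mfap4, Loxl1 and Emilin1 had smaller unadjusted limma p (0.00126, 0.00672 and 0.00696) than Eln (0.00905). The 16-day difference was -0.59 without mouse 9955 and -0.55 once each library's GC trend was removed. The difference between 3 months and 16 days in ieCre was -0.90 (SE 0.27, adjusted p = 0.0644), and in ieET-1 it was -0.28 (adjusted p = 0.546). Without mouse 8088 or mouse 8089, the 2 ieCre mice with IDs of 80xx to 81xx, the ieCre difference passed at -1.03 and -1.02 (adjusted p = 0.0338 and 0.04). It also passed with GC trends removed (-0.91, adjusted p = 0.0163), library weights (-0.89, adjusted p = 0.00803) and DESeq2 (-0.88, adjusted p = 0.0273). It did not pass in the other 13 of 16 settings, nor in 10 of the 12 fits that left out 1 library. Leaving out 1 library gave differences of -1.03 to -0.72.

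Fbn1 encodes fibrillin-1, the main protein of the microfibril (ENSMUSG00000027204, chr2:125300594-125507993, minus strand). In ieCre its value was 1033 to 1460, median 1353, at 16 days and 523 to 731, median 600, at 3 months. The 6 libraries of each time did not overlap. In ieET-1 it was 820 to 1243, median 979.5, at 16 days and 461 to 914, median 657, at 3 months, where mice 8152 and 9489 reached into the 16-day range. Fbn1 fell 2.12-fold in ieCre (log2 difference -1.09, SE 0.14, limma adjusted p = 0.000101) and 1.47-fold in ieET-1 (-0.56, SE 0.14, adjusted p = 0.0173). The ieET-1 call was lost on the compared groups alone (adjusted p = 0.0643), without the libraries high in Gm42418 (0.0745), and with the pancreatic acinar (0.0718), adrenal cortex (0.0804) or adipocyte (0.222) score as a term, at differences of -0.56 to -0.44. Between the genotypes at 16 days the means were 1303 ± 162 and 1002 ± 149 (SD, n = 6), a log2 difference of -0.38 that did not pass (adjusted p = 0.461), and at 3 months they were 613 ± 79.2 and 691 ± 165. The genotype by time interaction was 0.53 (SE 0.20, unadjusted p = 0.0148) and did not pass either (adjusted p = 0.752). A short predicted gene, Gm9913, lies on the opposite strand within Fbn1 at a mean value of 0.867, against 902 for Fbn1.

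Mfap4 and Mfap5 encode microfibril-associated glycoproteins; MFAP4 binds both fibrillin and tropoelastin. Mfap4 (ENSMUSG00000042436, chr11:61485431-61488900, plus strand) had values of 166 to 282, median 257, in ieCre and 138 to 186, median 171, in ieET-1 at 16 days. At 3 months the values were 129 to 208, median 165, in ieCre and 97.8 to 151, median 127, in ieET-1. Both ieET-1 medians were below the ieCre medians of the same time, and the ranges overlapped at both times. The genotype difference was -0.50 at 16 days (SE 0.14, limma adjusted p = 0.297) and -0.40 at 3 months (SE 0.14, adjusted p = 0.999), and neither passed. With time Mfap4 fell 1.42-fold in ieCre (-0.51, adjusted p = 0.0395); the ieET-1 difference was -0.41 (adjusted p = 0.0641). The latter passed with GC trends removed (-0.52, adjusted p = 0.0369), without mouse 9489 (-0.46, adjusted p = 0.0381), with library weights and with DESeq2. In the other 12 of 16 settings it did not pass. The ieCre call was not steady: leaving out any of mice 8, 10, 9955, 9957, 8089, 9485, 9486, 9487 or 9491 gave differences of -0.52 to -0.44, and the adjusted p rose to between 0.0528 and 0.0959. Mapk7 overlaps Mfap4 on the opposite strand, at a mean value of 9.60 against 175.

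Mfap5 (ENSMUSG00000030116, chr6:122505845-122529290, plus strand) was 124 to 263, median 199, in ieCre at 16 days and 152 to 193, median 187, in ieET-1. At 3 months it was 89.7 to 195, median 154, in ieCre and 66.2 to 225, median 107, in ieET-1. The 4 groups overlapped, and the widest of them was the ieET-1 group at 3 months, with mouse 9489 highest and mouse 8135 lowest. No comparison of Mfap5 passed; the log2 difference with time was -0.44 in ieCre (limma adjusted p = 0.326) and -0.63 in ieET-1 (adjusted p = 0.0897). Without mouse 9489 the latter was -0.82 and passed (adjusted p = 0.0153), as it did with library weights (-0.62, adjusted p = 0.0492). In the other 14 of 16 settings it did not pass.

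Ltbp4 encodes a latent TGF-beta binding protein that helps fibulin-5 place elastin on microfibrils (ENSMUSG00000040488, chr7:27305136-27337692, minus strand). Its values were 158 to 602, median 217, in ieCre and 144 to 275, median 185, in ieET-1 at 16 days. At 3 months they were 128 to 275, median 226, and 136 to 353, median 230. The groups overlapped throughout, and the 602 came from mouse 9955, more than double the next ieCre value of 261. The genotype difference of -0.36 at 16 days (limma adjusted p = 0.617) shrank to -0.10 without that mouse, and to -0.09 with the GC trends removed. The differences with time were -0.21 in ieCre and 0.18 in ieET-1 (adjusted p = 0.723 and 0.720), and both signs changed under other settings.

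Fbln5 encodes fibulin-5, which binds tropoelastin and lysyl oxidase-like 1 and guides elastin onto the microfibril (ENSMUSG00000021186, chr12:101746565-101819055, minus strand). In ieCre its value was 336 to 640, median 446, at 16 days and 173 to 250, median 226, at 3 months. These groups did not overlap. In ieET-1 it was 313 to 524, median 399, and 180.1 to 322, median 228, and only mouse 8136 at 3 months rose above the lowest 16-day library, mouse 257. Fbln5 fell 2.05-fold with time in ieCre (log2 difference -1.04, SE 0.15, limma adjusted p = 0.000426) and 1.76-fold in ieET-1 (-0.82, SE 0.15, adjusted p = 0.00191). The genotype difference was -0.15 at 16 days (95% interval -0.47 to 0.17) and 0.07 at 3 months (-0.25 to 0.39), and neither passed. Fbln5 was the member whose call with time held in both genotypes under every setting and every omission of a library that was run.

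Emilin1 encodes an elastin-microfibril interface protein (ENSMUSG00000029163, chr5:30913402-30921277, plus strand). Its values were 88.2 to 172, median 136, in ieCre and 68.2 to 131, median 81.9, in ieET-1 at 16 days. At 3 months they were 93.3 to 165, median 99.0, and 78.9 to 160, median 109.9. At 16 days 5 of the 6 ieET-1 libraries lay below every ieCre library, and mouse 8992, at 130.7, did not. The 16-day genotype difference was -0.59 (SE 0.20, limma adjusted p = 0.451) and did not pass, and with GC trends removed it was -0.35. The differences with time were -0.19 in ieCre and 0.37 in ieET-1, in opposite directions, and neither passed (adjusted p = 0.663 and 0.256).

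Lox encodes lysyl oxidase, the founding enzyme of the crosslinking family. In ieCre its value was 184 to 288, median 227.5, at 16 days and 119 to 193, median 148, at 3 months. In ieET-1 it was 174 to 271, median 195, and 119.7 to 179.5, median 152. A single ieCre library at 3 months, mouse 9487, reached the 16-day range. Lox fell 1.54-fold with time in ieCre (log2 difference -0.62, SE 0.13, limma adjusted p = 0.0115) and 1.4-fold in ieET-1 (-0.49, SE 0.13, adjusted p = 0.0261). The ieET-1 call was lost on leaving out mouse 258, 8992, 8135 or 9490, with differences of -0.41, -0.43, -0.44 and -0.42. It was also lost in 7 of 16 other settings, among them limma with GC trends removed (-0.37, adjusted p = 0.126). Between genotypes Lox differed by -0.11 at 16 days (95% interval -0.38 to 0.17) and 0.03 at 3 months (-0.25 to 0.30).

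Loxl1 encodes the lysyl oxidase-like enzyme that fibulin-5 brings to elastin (ENSMUSG00000032334, chr9:58287738-58313186, minus strand). Its values were 102 to 182, median 121.5, in ieCre and 72.0 to 126, median 89.1, in ieET-1 at 16 days. At 3 months they were 76.6 to 105.5, median 94.6, and 60.2 to 126.5, median 85.4. As for Eln and Emilin1, mouse 8992 was the ieET-1 library that lay within the ieCre range at 16 days. The 16-day genotype difference was -0.51 (SE 0.17, limma adjusted p = 0.451), or -0.26 with GC trends removed, and neither passed. The difference with time was -0.50 in ieCre (SE 0.17, adjusted p = 0.110) and -0.14 in ieET-1 (adjusted p = 0.643). In ieCre it passed with GC trends removed (-0.54, adjusted p = 0.00607) and with DESeq2 (-0.54, adjusted p = 0.0482). It did not pass in the other 14 of 16 settings, nor on leaving out any of the 12 libraries.

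Loxl2 encodes a lysyl oxidase-like enzyme best known for crosslinking collagen IV (ENSMUSG00000034205, chr14:69609068-69695834, plus strand). In ieCre its value was 17.4 to 26.55, median 20.1, at 16 days and 7.98 to 15.4, median 9.999, at 3 months. These groups did not overlap. In ieET-1 it was 12.65 to 24.4, median 15.8, and 6.76 to 13.1, median 12.3, and here the ranges met. Loxl2 fell 1.88-fold with time in ieCre (log2 difference -0.91, SE 0.17, limma adjusted p = 0.00358) and 1.52-fold in ieET-1 (-0.61, SE 0.17, adjusted p = 0.0295). The ieET-1 call was lost without mouse 258, 8992, 8134 or 9490, with differences of -0.61, -0.50, -0.53 and -0.49, and in 5 of 16 other settings. The genotype difference was -0.31 at 16 days (adjusted p = 0.535) and -0.01 at 3 months. Genes overlapping Loxl2 were at values close to 0.

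The 3-month and 16-day arteries of the ieCre controls were compared first across the whole set. Fbn1 of the microfibril, the assembly protein Fbln5, the crosslinking enzymes Lox and Loxl2 and the microfibril-associated Mfap4 fell, by 1.42-fold to 2.12-fold. Eln, Loxl1, Mfap5, Emilin1 and Ltbp4 had log2 differences of -0.90 to -0.19 that did not pass. The 5 genes that fell make 5 of 10, where 3.3% of all genes passed in either direction and 1.37% were lower at 3 months. All 10 differences were negative with a median of -0.56, against 47.5% negative and a median of 0.01 over all genes. In 3 genes, Fbn1, Fbln5 and Loxl2, the 2 times did not overlap with 3 months lower, as in 1.05% of all genes. The values came from limma with 20 residual degrees of freedom and p-values adjusted over all 14544 genes.

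Time goes with age and with the ranges of animal IDs, so these cannot be told apart, and in whole arteries fewer cells of a type cannot be told from less RNA per cell. Marker genes of other cell types moved with time as well. Adipocyte markers rose in ieCre in 3 of 7 (mean log2 value 6.84 at 16 days, range 6.69 to 7.03, and 7.63 at 3 months, range 7.35 to 8.04). Fibroblast markers fell in 2 of 8 (score 10.03, range 9.75 to 10.3, and 9.39, range 9.04 to 9.94), namely the collagen genes Col1a1 (-1.66) and Col3a1 (-1.61). All 8 fibroblast markers had negative differences, with a median of -0.38. Those that did not pass include Pdgfra (-0.16) and Dcn (-0.03). None of the 8 smooth muscle markers passed, and no marker of these lists was at 0. Adrenal cortex markers had lower means at 3 months in 5 of 5, with a median difference of -1.93 and none passing, and pancreatic acinar markers higher ones in 8 of 8, with a median of 0.98 and none passing. With the adipocyte score as a term, chosen after seeing the data, 2 of the 10 genes passed: Fbn1 (-0.96, adjusted p = 0.0331) and Fbln5 (-1.18, adjusted p = 0.0150); 36 of all genes passed there. The differences that no longer passed were -0.81 for Loxl2, -0.56 for Mfap4 and -0.46 for Lox, against -0.91, -0.51 and -0.62 without the term. With library-total CPM 3 of the 10 passed, Fbn1, Fbln5 and Loxl2. The fibroblast markers' part in the result was not tested.

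In ieET-1 arteries Fbln5, Fbn1, Loxl2 and Lox fell between 16 days and 3 months, by 1.4-fold to 1.76-fold. Mfap5 (-0.63), Mfap4 (-0.41), Eln (-0.28) and Loxl1 (-0.14) had lower levels at 3 months that did not pass, and Emilin1 (0.37) and Ltbp4 (0.18) had higher ones that did not pass. The 4 genes that fell are 4 of 10, where 8.66% of all genes passed in either direction and 3.39% were lower at 3 months. The median log2 difference of the 10 was -0.45 and 8 were negative, against 48.2% negative and a median of 0.01 over all genes. The 2 times overlapped in each of the 10, while in 1.33% of all genes they did not, with 3 months lower. Fibroblast markers fell in 3 of 8 (mean log2 value 9.99, range 9.86 to 10.2, and 9.27, range 9 to 9.8), and all 8 differences were negative, with a median of -0.57. Adipocyte markers rose in 3 and fell in 1 of 7 (6.998, range 6.54 to 7.57, and 7.62, range 6.97 to 8.27). No smooth muscle, pancreatic acinar or adrenal cortex marker passed, but all had higher means at 3 months: 8 of 8 with a median difference of 0.35, 8 of 8 with 2.45 and 5 of 5 with 1.54. With the adipocyte score as a term Fbln5 alone of the 10 genes passed; Loxl2 was then -0.52, Fbn1 -0.46 and Lox -0.36. Fits on the compared groups alone, whose differences are the same, or with the adrenal cortex or pancreatic acinar score as a term, also left Fbln5 alone; with the adrenal score Loxl2 was -0.65, Fbn1 -0.51 and Lox -0.44. Of the 10 genes, 2 passed without the libraries high in Gm42418 or with no filter. The share of lower genes among all calls was 39.1%, but 78.8% with library-total CPM, where the median of all genes shifted by -0.155, and 51.6% after quantile normalization.

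**Figure D2:**
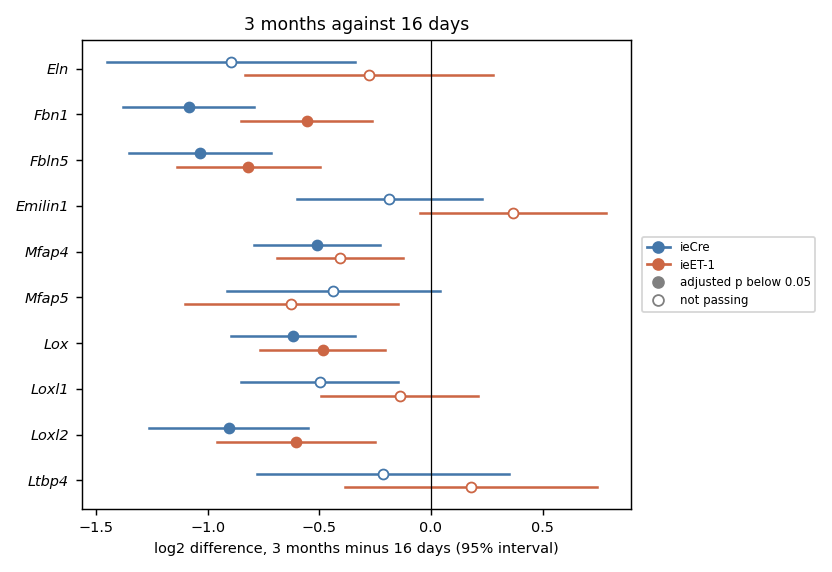
Log2 difference of each gene, 3 months minus 16 days, in ieCre (blue) and ieET-1 (red) arteries, with 95% intervals from limma; filled points have an adjusted p below 0.05. Fbn1, Fbln5, Lox and Loxl2 are filled in both genotypes and Mfap4 in ieCre, while Emilin1 and Ltbp4 lie on both sides of 0.

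At 16 days all 10 genes had lower mean log2 levels in ieET-1 than in ieCre, except that Mfap5 turned to 0.02 with library-total CPM, and none passed the test. The differences were largest for Eln (-0.76), Emilin1 (-0.59), Loxl1 (-0.51) and Mfap4 (-0.50), between -0.38 and -0.31 for Fbn1, Ltbp4 and Loxl2, and -0.15 or smaller in size for Fbln5, Lox and Mfap5. Over all genes 0.0825% passed, so 0 of 10 is near the background, and 5 of the 10 had an unadjusted p under 0.05, against 9.91% of all genes. The counts with edgeR and with DESeq2 on the recovered whole reads were 0 of 10 as well. The median of the 10 was -0.37, against -0.01 over all genes, of which 52.3% were negative. None of the 10 had groups that did not overlap, which 0.399% of all genes had with ieET-1 lower. Within the mice with IDs of 1 to 3 digits (2 ieCre and 3 ieET-1), 9 of the 10 genes were lower in ieET-1. The count was likewise 9 of 10 within the mice with IDs of 4 digits at that time (4 ieCre and 3 ieET-1). All 10 genes share these few libraries, and the share over all genes within a range was not taken.

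Other features of the 16-day libraries moved with genotype. Eln, Emilin1 and Loxl1, 3 of the 4 genes with the largest differences, have GC-rich transcripts, and the GC trend was negative in the 6 ieET-1 libraries. Mfap4, the other of the 4, has 53.6% GC. Ltbp4, the most GC-rich of the set at 62.2%, differed by -0.36. With the trend removed from each library, a step chosen after seeing the data, the differences were -0.55 for Eln, -0.39 for Mfap4, -0.35 for Emilin1, -0.30 for Fbn1 and -0.26 for Loxl1, with 0 of 10 passing. All 8 smooth muscle markers had lower means in ieET-1, with a median difference of -0.45 and 0 passing, and the smooth muscle score ranged from 9.78 to 10.2 in ieCre and from 9.29 to 10.1 in ieET-1. Adrenal cortex markers, which a mesenteric dissection should lack, were lower in ieET-1 in 5 of 5 (score 2.85 to 6.69 in ieCre and 0.439 to 3.80 in ieET-1). All 5 passed with limma, with a median difference of -3.62, and only 12 of all 14544 genes passed. With the adrenal score as a term the Eln difference was -0.75. The part of the smooth muscle markers in these differences was not tested.

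At 3 months no difference between the genotypes was detected in the set. With limma 0 of 10 genes passed, where 0.00688% of all genes did, and edgeR and DESeq2 also called 0 of 10. Mfap4 (-0.40) alone had an unadjusted p under 0.05. Differences of 6 genes were negative and 4 positive, with a median of -0.03; with library-total CPM all 10 were negative, where the median of all genes shifted by -0.14. The widest intervals were those of Eln, -0.70 to 0.41, and Ltbp4, -0.53 to 0.60. The ID ranges were not balanced: ieCre held 2 mice of 80xx to 81xx and 4 of 94xx, and ieET-1 held 4 and 2. Within 80xx to 81xx, 6 of 10 genes were lower in ieET-1, and within 94xx, 9 of 10. The share over all genes within a range was not taken. Eln differed by -0.61 within 80xx to 81xx and by -0.16 within 94xx, against -0.14 over all 3-month mice. Over the other settings this Eln difference ran from -0.39 to -0.10.

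The change of the genotype difference between the times was also tested. In 9 of the 10 genes the difference was more negative at 16 days than at 3 months, Mfap5 being the exception, and the median interaction was 0.33; with library-total CPM, which shifted the median of all genes by -0.20, Fbln5, Mfap4 and Lox turned negative as well. The largest were Eln (0.62, SE 0.38), Emilin1 (0.55, SE 0.29) and Fbn1 (0.53, SE 0.20). Over the other settings the Eln value ran from 0.32 to 0.67. None of the 10 passed with limma, edgeR or DESeq2, 1 had an unadjusted p under 0.05, and 0% of all genes passed with limma, where 731 had an unadjusted p under 0.05 and DESeq2 called 6. A larger difference at 16 days is therefore not shown for any of them. The comparisons share groups of mice: a low ieET-1 or high ieCre group at 16 days enters the genotype, time and interaction values alike.

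**Figure D3:**
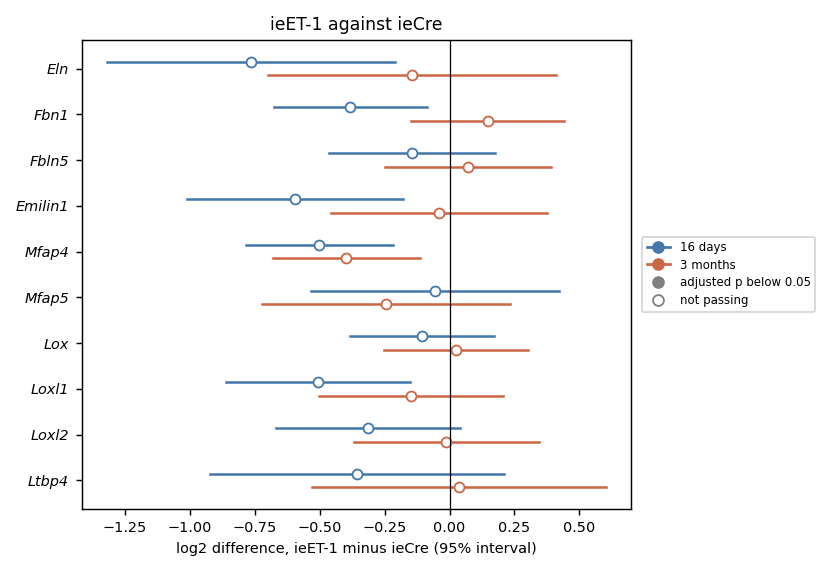
Log2 difference of each gene, ieET-1 minus ieCre, at 16 days and at 3 months, with 95% intervals from limma. All 10 estimates at 16 days lie below 0, from -0.76 for Eln to -0.06 for Mfap5, which turned to 0.02 with library-total CPM, and at 3 months they lie on both sides of 0, where library-total CPM put all 10 below it.

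Genes that work with the set were taken from 4 lists of related genes. Over all genes, 3.3% passed with time in ieCre and 8.66% in ieET-1, and 1.37% and 3.39% were lower at 3 months. The counts of the lists stand beside these shares. Among other microfibril and fibulin genes 16 of 17 were tested. In ieCre 3 fell with time: Adamtsl2 (-1.11, limma adjusted p = 0.00869), a fibrillin-binding ADAMTS-like protein, Adamts17 (-0.75, adjusted p = 0.0145), a metalloprotease of the same superfamily, and Mfap2 (-0.67, adjusted p = 0.0362), a microfibril glycoprotein. In ieET-1 Adamtsl2 (-1.10, adjusted p = 0.00503), Adamts17 (-0.58, adjusted p = 0.0335) and Adamts10 (-0.42, adjusted p = 0.0344) fell. Adamts10 differed by -0.39 in ieCre (adjusted p = 0.0767). The list's median was -0.355 in ieCre and 0.07 in ieET-1, and no gene of the list passed the interaction. Adamts17 and Mfap2 were low, with mean values of 1.37 to 6.725 over the groups.

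Of the crosslinking partners 12 of 13 were tested. Bmp1, a protease that activates lysyl oxidase, fell in ieCre (-0.62, limma adjusted p = 0.00678) and in ieET-1 (-0.43, adjusted p = 0.0338), from mean values of 160 and 125 to 103 and 92.85. Plod2, a lysyl hydroxylase, fell in ieET-1 (-0.82, adjusted p = 0.0365) and differed by -0.60 in ieCre (adjusted p = 0.188). No other crosslinking partner passed, and the medians were -0.43 and -0.06.

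Among 11 tested of 13 proteases and inhibitors of elastin breakdown, Mmp2, a gelatinase that also cleaves elastin, fell in both genotypes (-0.998, limma adjusted p = 0.000391, and -0.52, adjusted p = 0.0287). Mmp9, the other gelatinase, rose in ieET-1 (1.29, adjusted p = 0.0395), from a mean value of 4.435 to 13.4, against 8.49 and 8.60 in ieCre. Of 12 tested elastin regulators, Tgfb2 and its receptor Tgfbr2 fell in ieCre (-0.55 and -0.55, adjusted p = 0.0145 and 0.00288) and in ieET-1 (-0.58 and -0.37, adjusted p = 0.00531 and 0.0237). Igf1, a growth factor known to raise elastin transcription, fell in ieET-1 (-0.92, adjusted p = 0.0154) and differed by -0.65 in ieCre (adjusted p = 0.123). No gene of the 4 lists passed the interaction. At 16 days and at 3 months no gene of the 4 lists passed between the genotypes. The 16-day medians were -0.29, -0.29, -0.31 and -0.20 in the order given, and the genes with the smallest p were Bmp1 (-0.35), Mfap2 (-0.48) and Mmp2 (-0.37), each at an adjusted p of at least 0.461.

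Variation within groups was also compared between the 10 genes. Over 24 libraries, deviations from the group means gave 36 positive correlations among 45 pairs, with a median Pearson r of 0.31. The libraries are shared by all pairs and the values are descriptive. The share over all pairs of genes was not taken, so a trait of this set is not shown. The closest pairs were Loxl1 with Ltbp4 (0.83), Eln with Loxl1 (0.82) and Eln with Emilin1 (0.79), and the most opposed was Emilin1 with Mfap5 (-0.78). Mfap5 also ran against Ltbp4 (-0.63), Eln (-0.62), Loxl1 (-0.53), Fbln5 (-0.13) and Loxl2 (-0.04). It was positive with Lox (0.36), Mfap4 (0.31) and Fbn1 (0.01). The same split followed the GC trend of the libraries. Deviations of Emilin1 (r = 0.91), Eln (0.82), Loxl1 (0.82) and Ltbp4 (0.75) were high in libraries with a positive trend, those of Mfap5 (-0.83) were low there, and Mfap4 (-0.03) and Lox (-0.15) showed little relation. With the trends removed, 36 of 45 pairs were still positive with a median of 0.33, but the range narrowed from -0.78 to 0.83 to -0.64 to 0.64.

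**Figure D4:**
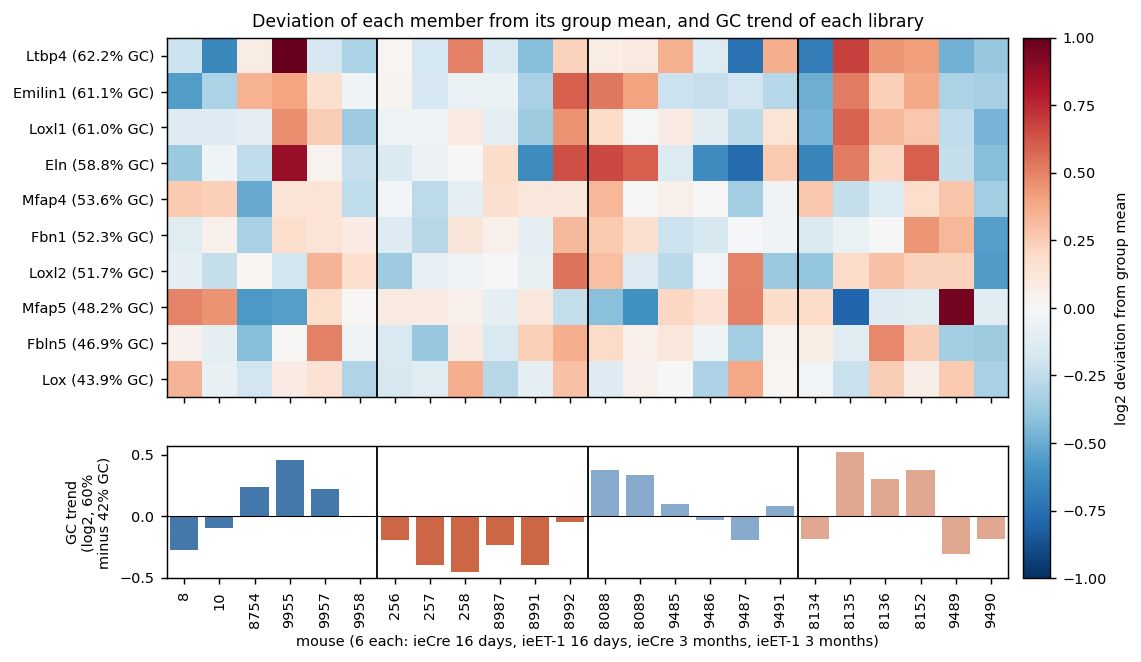
Top, log2 deviation of each gene from its group mean in each of the 24 libraries, with genes ordered by transcript GC content; bottom, the GC trend of each library (log2 deviation at 60% GC minus that at 42%). Mice 9955 and 8135 are high for the 4 GC-rich genes and low for Mfap5, and the trend is below 0 in all 6 ieET-1 libraries at 16 days.

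The genes whose log2 values followed the set most closely were sought among 11342 others over the 24 libraries, as a description. For Eln these were Col4a2 (Pearson r = 0.89, Spearman rho = 0.91) and Col4a1 (r = 0.88, rho = 0.87), which encode the collagen IV chains of the basement membrane, followed by Wipi1 (0.88), C1qtnf1 (0.88) and Rgp1 (0.88). Leaving out the 2 libraries farthest from the Eln median gave r = 0.84 for Col4a2. Closest to the mean of the 10 genes were the collagen VI gene Col6a3 (r = 0.93), the procollagen protease Adamts2 (0.92), Wipi1 (0.91), Mmp2 (0.91) and the basement membrane gene Nid1 (0.91). Single genes had their nearest partner in Pcsk5 for Fbn1 (r = 0.95), Lama2 for Fbln5 (0.92), Brat1 for Emilin1 (0.94), Tmem119 for Mfap4 (0.86), Fstl1 for Mfap5 (0.96), Gxylt2 for Lox (0.89), Chpf for Loxl1 (0.93), Tgfbr2 for Loxl2 (0.94) and Prrc2b for Ltbp4 (0.95). From deviations within groups alone, r was 0.67 for Lama2 with Fbln5 and 0.96 for Fstl1 with Mfap5.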

How the data were processed

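Values for 24 libraries come from the table the authors deposited, which holds a normalized signal per gene: whole reads divided by an effective library size, close to CPM. Dividing by the value of 1 read gave whole reads, within 0.001, for 100% of 482060 positive values. Per the submitters' processing notes, the tools were STAR 2.3.1, edgeR 3.6.8, R 3.2.3, bcl2fastq 1.8.4 and FastQC, with no role stated. For genome build, annotation and read counter the answer is the same: not given in the sources used here. Per the labels' protocols, libraries were stranded, ribosome-depleted total RNA. The table's 29021 rows include 1 that names no gene (at most 0.0993% of a library), which was left out. Symbols and places of 28403 genes (97.9%) come from GENCODE release 21 on GRCm38.

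Tests used limma 3.58.1 (R 4.3.3) with a variance trend on log2(value + 1). This scale understates changes of low genes. A gene was tested if 6 or more libraries had a value of 1 or above, and 1 means model over the 4 groups gave all comparisons. Two-sided p-values were adjusted over 14544 genes (Benjamini-Hochberg, threshold 0.05). Each library is 1 mouse, and no animal number is shared between groups. Whole reads were also tested with edgeR 4.0.16 and DESeq2 1.42.0, and the code was tested on simulated data. No library copied another: chi-square per degree of freedom was at least 13.1 over 276 pairs. CPM had been assumed when the design was written; the log-scale test was used unchanged.

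The genes and the 4 lists of related genes were chosen with earlier results of these data known. All 10 genes are named, as are up to 5 list genes that passed in a comparison, otherwise the 3 with the smallest p. The result of 1 list gene is not reported here. For likeness, genes with a mean value of at least 5 were ranked by Pearson r, 5 for Eln and for the mean of the set, 1 for each other gene. Where a gene had several RefSeq promoter entries, that nearest the GENCODE start was used. Alternatives changed the pseudocount, filter, scaling, tool, samples and covariates; the adipocyte score and the GC trend were added after seeing the data. The GC trend was a lowess curve of log2 deviations against transcript GC, known for 99.1% of tested genes.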

Additional observations from a re-analysis of the deposited data

Results flagged for a closer look

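Of 40 sets of 6 values (10 genes in 4 groups), 4 held a library whose gap to its nearest neighbour exceeded Dixon's 95% critical value; chance alone flags about 1 group in 20. Mouse 9955 (ieCre, 16 days), the library in which 26.6% of reads lay on Gm42418, stood apart for Eln at 852.9, with the next library at 479.0, and for Ltbp4 at 602.2, with the next at 261.1. Its GC trend was 0.456, the highest of its group. Mouse 8992 (ieET-1, 16 days) stood apart for Emilin1 at 130.7, with the next library at 87.6, and for Loxl2 at 24.44, with the next at 16.6. Its GC trend was -0.0476, the nearest to 0 of its group. The part of either feature in these values was not tested.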

How the results depend on the processing

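The time comparison in ieCre, with 5 of the 10 genes lower, gave 4 to 7 under most settings, 3 with library-total CPM and 2 with the adipocyte score as a term. Fbn1 and Fbln5 passed there under every setting run, while Mfap4 lost its call in 8 of 16. In ieET-1, with 4 lower, the count was 2 with no filter, 1 on the compared groups alone, 1 with the adrenal cortex score, 1 with the pancreatic acinar score, 2 without the libraries high in Gm42418 and 1 with the adipocyte score. It was 4 with GC trends removed, where Mfap4 passed and Lox did not. Fbln5 passed under every setting. Leaving out 1 library gave 4 to 6 genes in ieCre and 2 to 6 in ieET-1. It was 2 without mouse 258, 8992 or 9490. In the genotype and interaction comparisons 0 of 10 passed under every setting and omission.

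Over all genes, the 12 calls at 16 days between genotypes became 1 with no filter, 4 on the compared groups, 7 with edgeR, 41 with DESeq2, 19 with the ID range, 1 with the adrenal score, 24 without the libraries high in Gm42418 and 55 with library weights (1 to 21 on leaving out 1 library). The 1 call at 3 months became 2 with no filter and 0 with library-total CPM. The interaction count of 0 became 6 with DESeq2 and 1 without the libraries high in Gm42418. The 480 calls with time in ieCre became 316 with no filter, 794 with DESeq2, 132 with library-total CPM, 229 with the adrenal score, 266 without the libraries high in Gm42418, 2220 with library weights and 36 with the adipocyte score (272 to 592 on leaving out 1 library). The 1260 in ieET-1 became 657 on the compared groups, 1898 with DESeq2, 448 with library-total CPM, 503 with the adrenal score, 732 with the pancreatic score, 603 without the libraries high in Gm42418, 224 with the adipocyte score and 516 with GC trends removed (698 to 1566 on leaving out 1 library).

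Signs changed for differences that passed in no fit. With library-total CPM these were Mfap5 at 16 days (0.0213) and, at 3 months, Fbn1 (-0.00983), Fbln5 (-0.0851), Lox (-0.13) and Ltbp4 (-0.12), and in the interaction Fbln5 (-0.0172), Mfap4 (-0.13) and Lox (-0.101). With the ID range the 3-month values of Fbln5 (-0.0467) and Ltbp4 (-0.0915) and the interaction of Mfap5 (0.114) turned. The pancreatic score turned Loxl2 at 3 months (0.0117). Library weights turned Emilin1 (0.0351), Loxl2 (0.0372) and Ltbp4 (-0.13) at 3 months, the Mfap4 interaction (-0.00344) and Ltbp4 with time in ieCre (0.0616). Without the libraries high in Gm42418, Fbln5 (-0.0154), Mfap5 (0.0218) and Ltbp4 (-0.174) turned at 3 months, as did the interactions of Mfap5 (0.188) and Ltbp4 (-0.072) and Ltbp4 with time in ieET-1 (-0.103). Without mouse 9489, Emilin1 (0.0229) and Lox (-0.0259) turned at 3 months. With GC trends removed, Emilin1 at 3 months (0.0127), the Mfap4 interaction (-0.0169) and Ltbp4 with time in ieET-1 (-0.0824) turned. The cause was not tested. On leaving out 1 library, the 3-month values ran from -0.144 to 0.0653 for Emilin1, -0.0255 to 0.142 for Fbln5, -0.0357 to 0.103 for Lox, -0.0858 to 0.101 for Loxl2 and -0.111 to 0.172 for Ltbp4. Ltbp4 with time in ieCre ran from -0.344 to 0.0409 and Mfap5 at 16 days from -0.172 to 0.0425. No paired analysis was possible because no animal number is shared between groups. Every value of the 10 genes rests on at least 68 reads.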
